A study of Mus musculus with 6 samples.

Results

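Elastic fibre and microfibril genes were followed in mouse colon as a set of 10 members, namely Eln, Fbn1, Fbn2, Fbln1, Fbln2, Fbln5, Emilin1, Mfap2, Mfap4 and Mfap5. They were chosen by name, with earlier results of these data known, and make up 10 of the 23462 genes that could be named on the array. The array carried 15 probes for them, 2 probes for each of 5 members and 1 probe for each of the other 5. Every one of these 15 probes cleared background on each of the 6 arrays.

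The samples were colon RNA of 6 male mice, 3 labelled control and 3 labelled Islr knockout, each hybridised to its own single-colour Agilent array. The sample titles mark the controls as WT; the strain, the age and the design of the Islr allele are not given in the sources used here. The source field states that all 6 mice, controls included, drank 3.5% dextran sulfate sodium (DSS), which injures the colonic epithelium, for 5 days and then recovered for 1 day, whereas the treatment field of the same labels records no treatment. Islr, a gene of stromal cells, encodes a secreted protein with leucine-rich repeats, and the design asked how its loss changed colonic expression.

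Elastic fibres let a tissue stretch and recoil. Their core is crosslinked elastin, laid down on a scaffold of fibrillin microfibrils, and smaller glycoproteins such as fibulins, emilins and the microfibril-associated proteins join the core to the scaffold and the scaffold to cells. In the gut wall these fibres lie in the submucosa, around vessels and between muscle layers, where fibroblasts and smooth muscle cells make them. Microfibrils also hold latent TGF-beta and bone morphogenetic proteins in the matrix.

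Levels are given as the log2 of a spot's processed signal minus the array's 75th percentile, so that 0 is the 75th percentile of that array. Probes differ in efficiency, so a level was compared between arrays and never between probes. A difference is knockout minus control on this log2 scale, and -1 is a halved signal. A probe was called at a limma adjusted p under 0.05 over all 35351 tested probes. The 75th percentile itself was 6353 to 7110 intensity units in controls and 4910.5 to 5820 in knockouts, and 69.4% to 75.4% of spots were well above background. By the file headers the controls share one slide row and the knockouts the other, and slide row and genotype cannot be told apart. The Islr probe, read first as a check of the labels, was at 1.57, 1.24 and 1.21 in control replicates 1, 2 and 3, the first from an outlier spot, and at -1.40, -0.93 and -1.31 in knockouts (difference -2.44, limma adjusted p 0.0171; 0.0580 without knockout replicate 3). All 9 colon epithelium markers and all 10 fibroblast markers examined had a probe well above background on all 6 arrays.

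Fibulin-2 and fibulin-5 transcripts fell in the knockout colon, and those of most of the other scaffold and linker genes were lower in every knockout than in every control without passing the test. Of the 10 members, 2 were called lower (Fbln2 and Fbln5) and none higher, where 3.20% of all tested named genes were called lower. That is 2 of the 14 tested member probes, beside 3.97% of all tested probes called in either direction and 2.42% called lower. At 7 members, all but Fbn2, Mfap4 and Mfap5, every probe was lower in all 3 knockouts than in all 3 controls. Such a separation was present at 11 of the 15 member probes with outlier spots kept. Over probes with no outlier spot on any array it was present at 9 of 13 member probes, beside 18.0% of all such probes. The median difference over the 10 members, each at its brighter probe, was -0.79, beside 0.01 over 16451 tested named genes. In these bulk samples fewer cells of a type and less RNA per cell cannot be told apart.

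**Figure D1:**
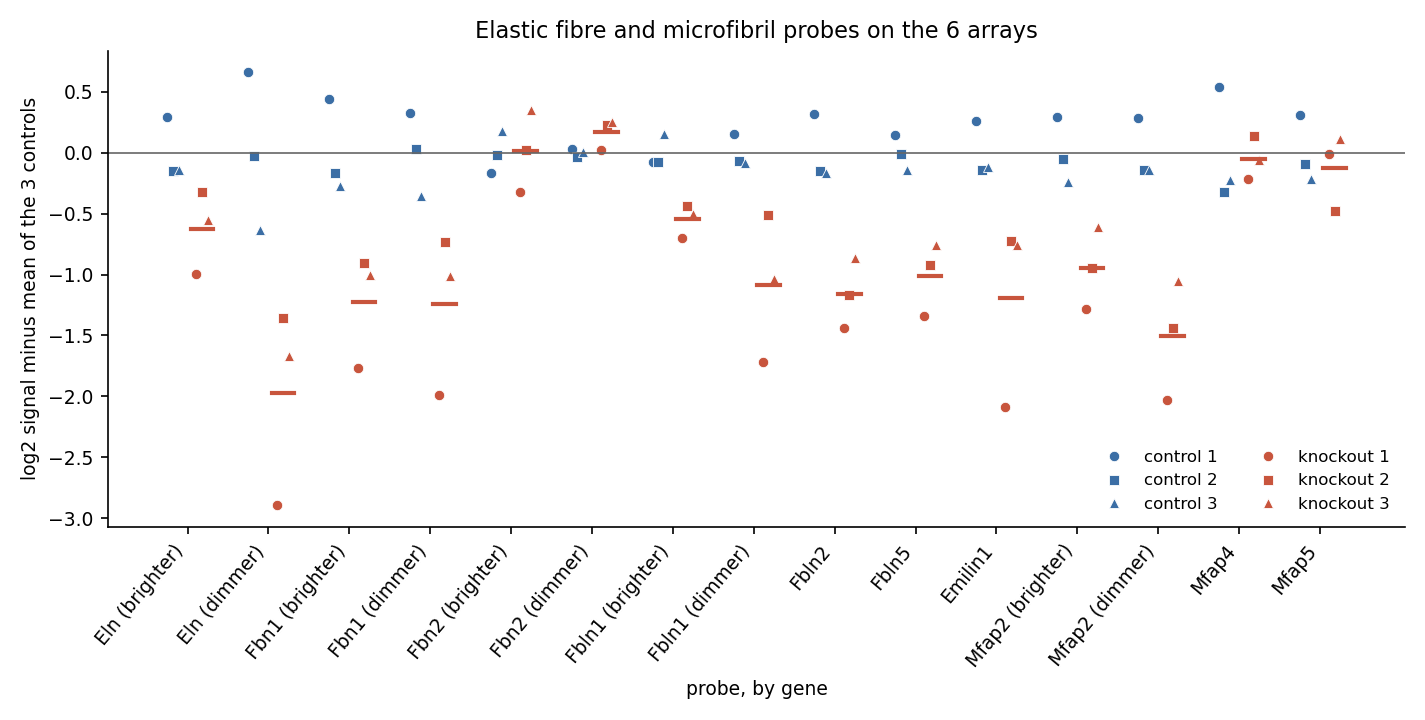
Log2 signal of each of the 15 member probes on the 6 arrays, as the difference from the mean of the 3 controls (vertical axis); blue points are controls, red points knockouts, symbols are replicates and the red line is the knockout mean. The knockout points lie below all controls at 11 probes and overlap them at both Fbn2 probes, Mfap4 and Mfap5.

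To show what lies before the starts of genes whose groups separated alike, sequence was read from the RefSeq promoter table (GRCm38.p6), in windows of 250 bases. Windows were found for 6 of the members, 9 windows in all. The stretches below are those of a called gene, Fbln5, and of Fbn1 and Mfap2, members with separated groups, limited to bases outside the annotated gene; capitals mark the GC box (GGGCGG) bound by Sp1-type factors and the TEAD motif (GGAATG), on either strand.
Fbln5, chr12:101819120-101819369, minus strand: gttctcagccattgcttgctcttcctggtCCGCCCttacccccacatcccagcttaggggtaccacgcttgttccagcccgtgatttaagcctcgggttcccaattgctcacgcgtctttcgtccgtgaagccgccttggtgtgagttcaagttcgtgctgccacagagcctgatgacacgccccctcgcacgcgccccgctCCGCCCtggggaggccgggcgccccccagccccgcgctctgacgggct
Fbn1, chr2:125506486-125506688, minus strand: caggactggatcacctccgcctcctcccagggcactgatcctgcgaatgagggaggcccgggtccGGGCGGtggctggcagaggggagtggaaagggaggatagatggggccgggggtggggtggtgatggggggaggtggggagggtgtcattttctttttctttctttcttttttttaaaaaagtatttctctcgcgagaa
Mfap2, chr4:141010174-141010423, plus strand: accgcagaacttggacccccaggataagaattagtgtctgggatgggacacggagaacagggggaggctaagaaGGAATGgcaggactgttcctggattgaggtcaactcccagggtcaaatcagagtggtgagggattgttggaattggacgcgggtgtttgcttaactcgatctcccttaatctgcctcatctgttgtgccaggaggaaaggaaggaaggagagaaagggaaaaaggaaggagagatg
The Fbln5 window shown held 2 GC boxes, beginning 221 and 48 bases before the start, and the Fbn1 window held 1. Another Fbln5 window, not shown, held no GC box. The Mfap2 window shown held the only TEAD motif among the 9, and a second Mfap2 window held 2 GC boxes. A GC box was present in 5 of the 9 member windows and in 32.7% of the 32851 windows of the table, and the TEAD motif in 12.6% of them. The E-box (CANNTG) was in 6 member windows and 66.2% of all windows, and the SMAD motif (CAGAC) in 5 and 42.2%. No member window held the AP-1 motif (TGANTCA), the TATA motif (TATAAA) or the CArG box, which were in 6.75%, 12.4% and 1.47% of all windows. The windows of Fbln1 overlap in part, so some of their E-box and SMAD matches were counted in both. All these matches describe letters in a window and not binding.

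Elastin is the monomer of the elastic core and is encoded by Eln. At its brighter probe (A_55_P2797109) the control replicates were at 1.55, 1.11 and 1.11 and the knockouts at 0.26, 0.94 and 0.70. All knockouts were below all controls, although knockout replicate 2 came close to control replicates 2 and 3. The difference was -0.62 (SE 0.23, 95% interval -1.18 to -0.07, limma adjusted p 0.148), so the elastin difference did not pass. The dimmer probe (A_52_P609972) was at -1.67, -2.35 and -2.96 in controls and at -5.22, -3.68 and -3.99 in knockouts. This is a wider gap, with knockout replicate 1 lowest at both probes. The difference there was -1.97 (SE 0.48, 95% interval -3.13 to -0.82, adjusted p 0.0678). Both probes carry the same transcript accession, and their difference within an array averaged -3.58 ± 0.44 over the controls and -4.93 ± 0.48 over the knockouts (mean ± SD, n = 3 arrays), with no overlap (exact permutation p = 0.1, the smallest that 3 against 3 arrays allow; 0.25 adjusted over 5 genes with 2 probes). The size of the elastin difference therefore depends on the probe read. At the dimmer probe knockout replicate 1 (-5.22) lay near the dimmest signal that still cleared background (-5.50). Without that array the difference was -0.44 at the brighter probe and -1.51 at the dimmer.

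Fibrillins are the large glycoproteins that polymerise into microfibrils. Fbn1 encodes fibrillin-1, the main form after birth, and Fbn2 fibrillin-2, most abundant in development. The brighter Fbn1 probe (A_55_P2931427) was at 1.50, 0.89 and 0.78 in controls and at -0.71, 0.15 and 0.05 in knockouts. No knockout reached the lowest control, and knockout replicate 1 was the farthest below. The difference was -1.23 (SE 0.30, 95% interval -1.95 to -0.50, adjusted p 0.0686), which did not pass, and the fitted knockout level was 42.7% of the control level. The second Fbn1 probe (A_51_P467224) was an outlier spot in control replicates 1 and 3 and could not be tested; with those spots kept it read 0.76, 0.46 and 0.07 in controls and -1.55, -0.30 and -0.58 in knockouts, again without overlap.

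Fbn2 read differently. Its brighter probe (A_55_P2121096) was at -0.67, -0.52 and -0.32 in controls and at -0.83, -0.49 and -0.16 in knockouts. The groups overlapped, and the difference was 0.01 (SE 0.22, 95% interval -0.50 to 0.53, adjusted p 0.973). The second probe (A_51_P103850) was at -0.70, -0.76 and -0.72 in controls and at -0.70, -0.50 and -0.47 in knockouts, a difference of 0.17 (95% interval -0.17 to 0.51, adjusted p 0.488). Both intervals exclude the difference fitted at the brighter Fbn1 probe. Read on the same array, Fbn1 minus Fbn2 at the brighter probes averaged 1.56 ± 0.55 over the controls and 0.32 ± 0.27 over the knockouts (mean ± SD, n = 3 arrays), smaller in every knockout than in every control (exact permutation p = 0.1, 0.125 adjusted over 5 pairs chosen after the values were seen).

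Fibulins are calcium-binding glycoproteins that sit at the boundary of elastin and microfibrils, and the 3 fibulin genes here held both calls. Fbln5 encodes fibulin-5, which tethers elastin to microfibrils and to integrins and is needed to form elastic fibres. Its probe (A_55_P2088615) was at 0.94, 0.78 and 0.65 in controls and at -0.55, -0.14 and 0.03 in knockouts. All knockouts were below all controls. Fbln5 fell by 1.01 on the log2 scale (SE 0.20, 95% interval -1.48 to -0.53, adjusted p 0.0468), to 49.7% of the control level.

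Fbln2 encodes fibulin-2, which binds fibrillin-1 and elastin and is prominent in vessel walls and healing tissue. The probe (A_52_P590535) was at 2.17, 1.70 and 1.68 in controls and at 0.41, 0.69 and 0.99 in knockouts. The groups lay well apart, with similar spread in each. Fbln2 fell by 1.16 (SE 0.22, 95% interval -1.69 to -0.63, adjusted p 0.0453), to 44.9% of the control level.

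Fbln1 encodes fibulin-1, found in elastic fibres and basement membranes. The brighter probe (A_52_P588483) was at 2.06, 2.06 and 2.29 in controls and at 1.44, 1.70 and 1.63 in knockouts. The groups were separated by a smaller step than at the other fibulins, with a difference of -0.54 (SE 0.16, 95% interval -0.92 to -0.17, adjusted p 0.0909). The dimmer probe (A_65_P08768), assigned to another transcript of the gene, was at 1.51, 1.28 and 1.26 in controls and at -0.36, 0.84 and 0.32 in knockouts. There the knockouts scattered widely, and the difference was -1.09 (SE 0.31, adjusted p 0.0876). The 2 probes of Fbln1 differed from each other by -0.78 ± 0.24 over the controls and -1.32 ± 0.47 over the knockouts (mean ± SD, n = 3 arrays), with overlap (exact permutation p = 0.2, 0.333 adjusted over the 5 genes). Fbln2 minus Fbln1 went from -0.28 ± 0.36 to -0.89 ± 0.22 without overlap, and Fbln5 minus Fbln1 from -1.35 ± 0.27 to -1.81 ± 0.20 with overlap (SD, n = 3 each; exact permutation p = 0.1 and 0.2, adjusted 0.125 and 0.2). The remaining pair ran the other way: Eln minus Fbn1 at the brighter probes averaged 0.20 ± 0.14 over the controls and 0.81 ± 0.16 over the knockouts, with all knockouts above all controls (exact permutation p = 0.1, adjusted 0.125). These pairs of 2 members were chosen after the values were seen, so their separation is not independent support.

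The calls of Fbln2 and Fbln5 rested on all 6 arrays. Leaving out any 1 array ended both, with adjusted p from 0.0539 to 0.113 for Fbln2 and from 0.0632 to 0.139 for Fbln5, while the differences ran from -1.30 and from -1.13 at the lowest to -0.997 and -0.84 at the highest. In these 6 fits 0 members were called by limma, and 6 or 7 members had a probe with an unadjusted p under 0.05, as 7 had with all arrays. At the brightest probe, with all arrays, the count was 7 of the 10 members, beside 4637 of the 16451 tested named genes.

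**Figure D2:**
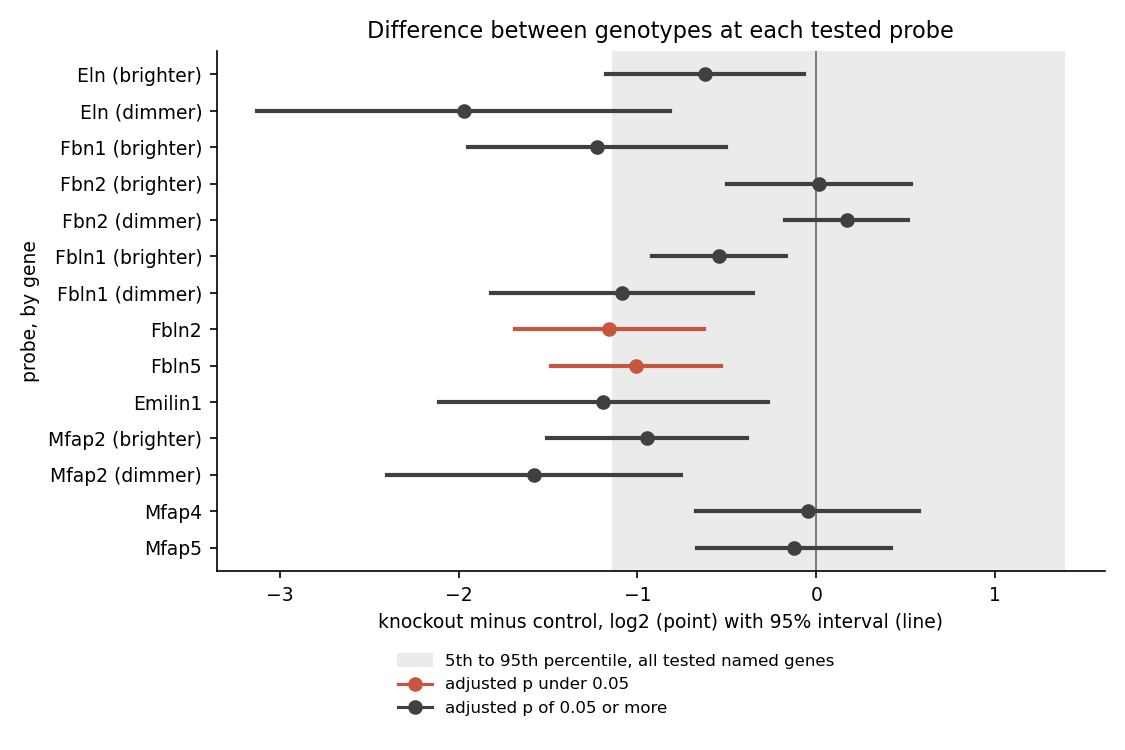
Difference between knockout and control at the 14 tested member probes (horizontal axis, log2; point, limma estimate; line, 95% interval), with the called probes in red and the range from the 5th to the 95th percentile of all tested named genes (-1.14 to 1.39) in grey. Fbln2 and Fbln5 have the 2 coloured intervals, and the intervals of Fbn2, Mfap4 and Mfap5 cross 0.

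Emilin1 encodes a glycoprotein at the interface of elastin and microfibrils that also restrains the processing of TGF-beta. Its probe (A_51_P222359) was at 1.30, 0.90 and 0.92 in controls and at -1.05, 0.31 and 0.28 in knockouts. The groups did not overlap, but knockout replicate 1 alone was far below the other knockouts. The difference was -1.19 (SE 0.38, 95% interval -2.11 to -0.27, adjusted p 0.112) and -0.74 without knockout replicate 1, so it was among the largest differences of the members and among the least precise.

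Mfap2 and Mfap5 encode the microfibril-associated glycoproteins MAGP-1 and MAGP-2, small proteins that bind fibrillin. The brighter Mfap2 probe (A_52_P28379) was at -0.37, -0.72 and -0.91 in controls and at -1.95, -1.61 and -1.27 in knockouts. All knockouts were below all controls, with a difference of -0.95 (SE 0.23, 95% interval -1.51 to -0.39, adjusted p 0.0688). The dimmer probe (A_55_P2062793) was at -1.15, -1.57 and -1.58 in controls, the second of these an outlier spot that was left out of the test, and at -3.46, -2.87 and -2.49 in knockouts. Its difference was larger, -1.58 (SE 0.33, 95% interval -2.40 to -0.76, adjusted p 0.0602, n = 2 controls and 3 knockouts). The 2 Mfap2 probes carry the same accession, and the dimmer minus the brighter went from -0.76 ± 0.09 to -1.32 ± 0.16 (SD, n = 3 each, outlier spot kept; exact permutation p = 0.1, adjusted 0.25).

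Mfap5 and Mfap4 did not show this separation. Mfap5 (A_55_P2062777) was at -2.04, -2.44 and -2.56 in controls and at -2.36, -2.83 and -2.23 in knockouts, which overlap. Its difference was -0.12 (SE 0.23, 95% interval -0.67 to 0.42, adjusted p 0.760). Mfap2 minus Mfap5 on the same array went from 1.68 ± 0.04 to 0.86 ± 0.41 without overlap (SD, n = 3 each). This pair was chosen after the values were seen, so its separation is not independent support (exact permutation p = 0.1, 0.125 adjusted over the 5 such pairs). Mfap4 encodes a fibrinogen-related protein that binds tropoelastin and fibrillin. Its probe (A_66_P131467) was at -2.49, -3.35 and -3.25 in controls and at -3.25, -2.89 and -3.10 in knockouts, and only control replicate 1 stood above the rest. The difference was -0.05 (SE 0.26, 95% interval -0.67 to 0.58, adjusted p 0.926). Leaving out control replicate 1 gave 0.22 and array weights gave 0.24, so no direction can be given for Mfap4.

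The arrays of a group were not alike at these genes. Knockout replicate 1 was the lowest of the 3 knockouts at 14 of the 15 probes and the lowest of all arrays at 12. The median over the 10 members, as the difference from the control mean, was -1.14 in knockout replicate 1 and -0.60 and -0.58 in knockout replicates 2 and 3. Control replicate 1 was the highest control at 13 probes, with a median of 0.29 against -0.12 and -0.16 in the other controls. The spread between knockouts exceeded that between controls at 13 of the 14 tested probes. Without knockout replicate 1 the median difference of the 10 members was -0.61, and without control replicate 1 it was -0.69.

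Markers of the cells that make or surround these fibres also differed between the groups, and their part in the differences was not tested. All 8 tested of 10 fibroblast markers were lower, with a median of -0.52 and 1 call; their summed signal, in multiples of the array's 75th percentile, was 37.5 to 42.7 in controls and 25.3 to 32.8 in knockouts. The summed signal of the members was 16.6 to 20.6 and 8.14 to 11.6. Smooth muscle markers ran the other way, with 8 of 8 tested markers (of 10) higher, a median of 0.36, no call by limma (2 with an unadjusted p under 0.05) and a summed signal of 46.1 to 57.4 in controls and 61.9 to 72.9 in knockouts. All 7 tested of 8 endothelial markers were lower (median -0.91; summed signal 10.8 to 12.6 against 3.51 to 8.46), as were 4 of 4 tested lymphatic markers (of 5; median -1.11; 6.57 to 7.75 against 2.35 to 4.33). Of 6 pericyte markers 3 were tested, 2 of them lower (median -0.56, summed signal 12.4 to 17.1 against 14.0 to 20.6). Most of that sum was Mcam, the tested marker that was higher (0.36). With outlier spots kept the untested markers were lower too, Kcnj8 at -1.18, Abcc9 at -0.94 and Rgs5, with overlap, at -0.17. All 7 tested of 9 colon epithelium markers were higher (median 1.16; 15.6 to 45.3 against 49.3 to 65.2). No marker of these 6 lists was below background on every array.

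Adipocyte markers set 1 array apart within each group. Their summed signal was 16.9 in control replicate 1 and 0.32 and 0.29 in the other controls, and 0.26 in knockout replicate 1 against 4.92 and 3.92 in the other knockouts. Of 6 adipocyte markers 4 were tested, all 4 higher (median 0.31), with no call by limma and 0 at an unadjusted p under 0.05. With outlier spots kept the untested Plin1 and Fabp4 were lower, at -1.09 and -0.35, both with overlap. Cfd was at 3.65 with the outlier spot of control replicate 1 left out and at 1.25 with it kept, with overlap. Control replicate 1, with the highest adipocyte signal, was also the highest control at most member probes, and knockout replicate 1, with the lowest, was the lowest knockout at most. These arrays also had the most outlier spots, 13.6% in control replicate 1 and 16.0% in knockout replicate 1 against 3.26% to 9.05% in the others. Knockout replicate 1 had the lowest share of spots well above background (69.4%) and the lowest 75th percentile (4910.5). The part of these features in the members' differences was not tested. Of 4 mesothelial markers, all tested, 3 were lower (median -0.42; summed signal 1.41 to 1.75 in controls and 0.64 to 1.71 in knockouts). All 5 tested of 7 enteric nervous system markers were lower (median -0.22), with no call by limma and 2 at an unadjusted p under 0.05. Of 8 skeletal muscle markers, all tested, 2 were lower and 6 higher (median 0.13). Among them 2 myosin heavy chain genes were called higher, Myh1 by 2.07 and Myh2, which was not well above background in any control.

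**Figure D3:**
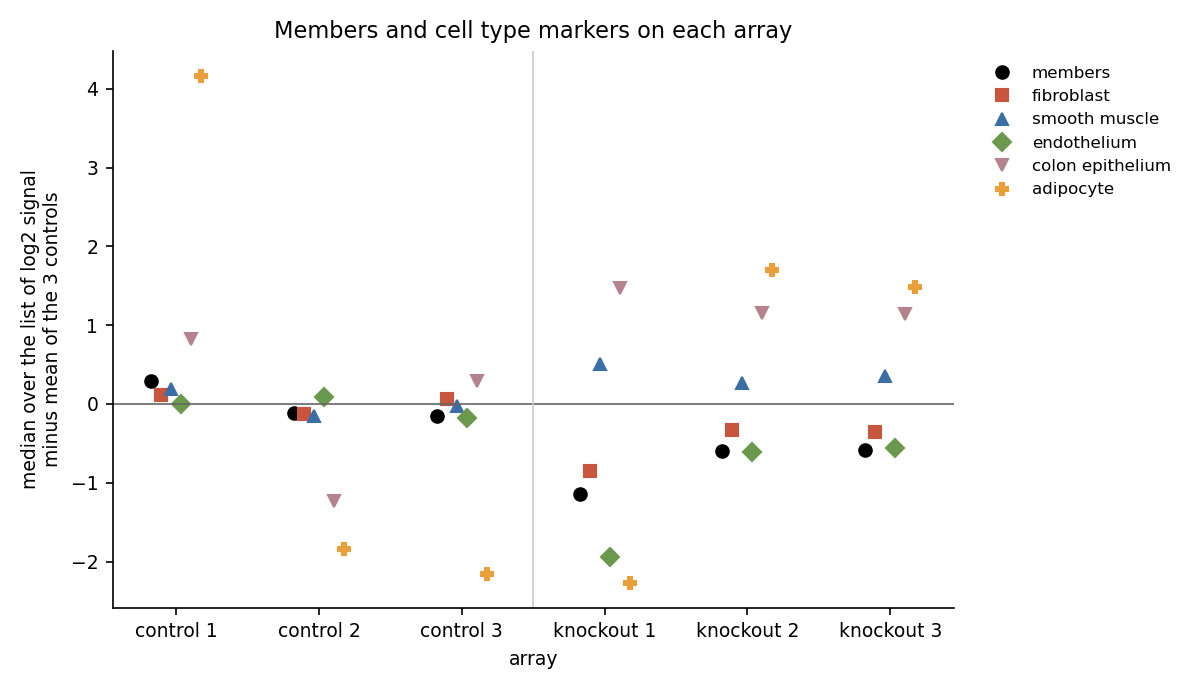
Median over each gene list of the log2 signal minus the mean of the 3 controls (vertical axis), on each of the 6 arrays (horizontal axis); black circles are the 10 members and the other symbols are marker lists. The members read -1.14, -0.60 and -0.58 in knockout replicates 1, 2 and 3, where fibroblast markers read -0.86, -0.32 and -0.36 and smooth muscle markers 0.51, 0.27 and 0.36.

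Centring each array on the fibroblast markers, a scaling added after the data were seen, subtracts 1 value from all genes of an array and so shifts every difference by a like amount. It moved the median of all named genes to 0.49 and that of the members to -0.28. Among member probes the call then fell on the dimmer Eln probe alone (-1.46, adjusted p 0.0346), while Fbln2 was at -0.65 (adjusted p 0.0859) and Fbln5 at -0.50 (adjusted p 0.134).

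Genes that build, bind or break down the fibres were read from 4 lists of 63 genes, 54 of them tested. At the brightest probe 10 were called lower and none higher, where 2.47% of all tested named genes were called lower and 1.35% higher. Of the 54, 27 had an unadjusted limma p under 0.05, as had 4637 of all 16451 tested named genes. Without control replicates 1, 2 or 3 the number called in either direction was 6, 0 and 0, and without knockout replicates 1, 2 or 3 it was 3, 7 and 0.

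Crosslinking and assembly genes had a median difference of -1.28 over 10 genes, 8 of them lower. Lox, the lysyl oxidase that crosslinks elastin and collagen, fell by 3.16 (SE 0.38, adjusted p 0.0236) and Loxl1, an elastin-directed relative, fell by 1.53 (SE 0.29, adjusted p 0.0437). Loxl1 averaged 0.81 ± 0.15 over the controls and -0.73 ± 0.55 over the knockouts (mean ± SD, n = 3 arrays). Efemp2, which encodes fibulin-4 and brings lysyl oxidase to elastin, had a difference of -1.05 (SE 0.29, adjusted p 0.0859). Efemp1 (fibulin-3) was at -1.72, and Fbln7 (fibulin-7) at 0.02.

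Microfibril-bound proteins had a median of -0.27 over 24 tested of 26 genes, 20 of them lower and 3 called. Those called were Emilin2, a relative of Emilin1, by -2.23 (SE 0.29, adjusted p 0.0260), the growth factor gene Tgfb1 by -1.49 (SE 0.29, adjusted p 0.0468) and the proteoglycan gene Bgn by -1.41 (SE 0.27, adjusted p 0.0458). Ltbp4, whose product works with fibulin-5 in elastic fibre assembly and stores latent TGF-beta, was at -0.13 (SE 0.16, adjusted p 0.638), and Ltbp3 at -0.82. With arrays centred on fibroblast markers the list's median was 0.16, beside 0.49 for all named genes on that scale. On the usual scale leaving out control replicate 2 gave -0.47 and leaving out knockout replicate 2 gave -0.67.

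Elastin-degrading proteases and their inhibitors had a median of -1.41 over 12 tested of 17 genes, 10 of them lower. The 5 called were all proteases. Mmp14, a membrane-bound protease that activates Mmp2, fell by 2.07 (SE 0.25, adjusted p 0.0233) and Mmp2 itself by 1.99 (SE 0.27, adjusted p 0.0335, n = 3 controls and 2 knockouts). Ctsk, a cysteine protease that cuts elastin and collagen, fell by 1.74 (SE 0.35, adjusted p 0.0486). Mmp9 fell by 2.86 (SE 0.56, adjusted p 0.0468) and cleared background in 2 of 3 knockouts. Mmp12, the macrophage elastase, was not well above background in any knockout and was at least 2.46-fold higher in controls, the knockouts being held at the dimmest signal that still cleared background (adjusted p 0.0339). The neutrophil protease genes Elane and Ctsg were above background on no array. Markers of neutrophils and macrophages, which make Mmp9 and Mmp12, also differed between the groups, and their part in the protease differences was not tested. Of 7 neutrophil markers, all tested, 6 were called lower (S100a8, S100a9, Cxcr2, Retnlg, Mmp8 and Camp). The remaining marker, Csf3r, was higher by 0.17 and was not called. The list median was -3.73, and the summed signal was 20.0 to 21.1 in controls and 10.1 to 10.5 in knockouts. Of 6 tested macrophage markers (of 7), 5 were lower and none was called by limma, although 4 had an unadjusted p under 0.05 (median -0.81; 15.3 to 20.8 against 10.4 to 14.0). The median of the proteases and inhibitors, -1.41 as reported, was -0.28 with outlier spots kept and -0.83 with knockout replicate 1 left out.

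Receptor genes had a median of 0.02 over 8 tested of 10, with 4 lower and 4 higher and no call by limma (4 had an unadjusted p under 0.05). Itgav, the integrin chain that binds fibrillin-1, had outlier spots on all 3 knockout arrays and could not be tested. With them kept, control replicates 1 (also an outlier spot), 2 and 3 of Itgav were at 1.87, 1.94 and 1.98 and all knockouts were lower, by 0.57 on average. Dimmer probes of list genes were also called, all lower, at Adamts6 (-2.12), Vcan (-2.34), Lox (-4.28), Loxl4 (-1.84) and Mfap3l (-1.29); those of Adamts6 and Lox cleared background in 2 of 3 knockouts. Further dimmer probes of Mmp12, Vcan and Slpi were not well above background in any knockout and were at least 2.34-fold, 1.80-fold and 5.52-fold higher in controls. The brighter probes of Adamts6, Vcan, Loxl4, Mfap3l and Slpi were lower but not called. At Slpi the brighter probe differed by only -0.60 (limma adjusted p 0.232). Over the whole array 2.42% of tested probes were called lower.

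**Figure D4:**
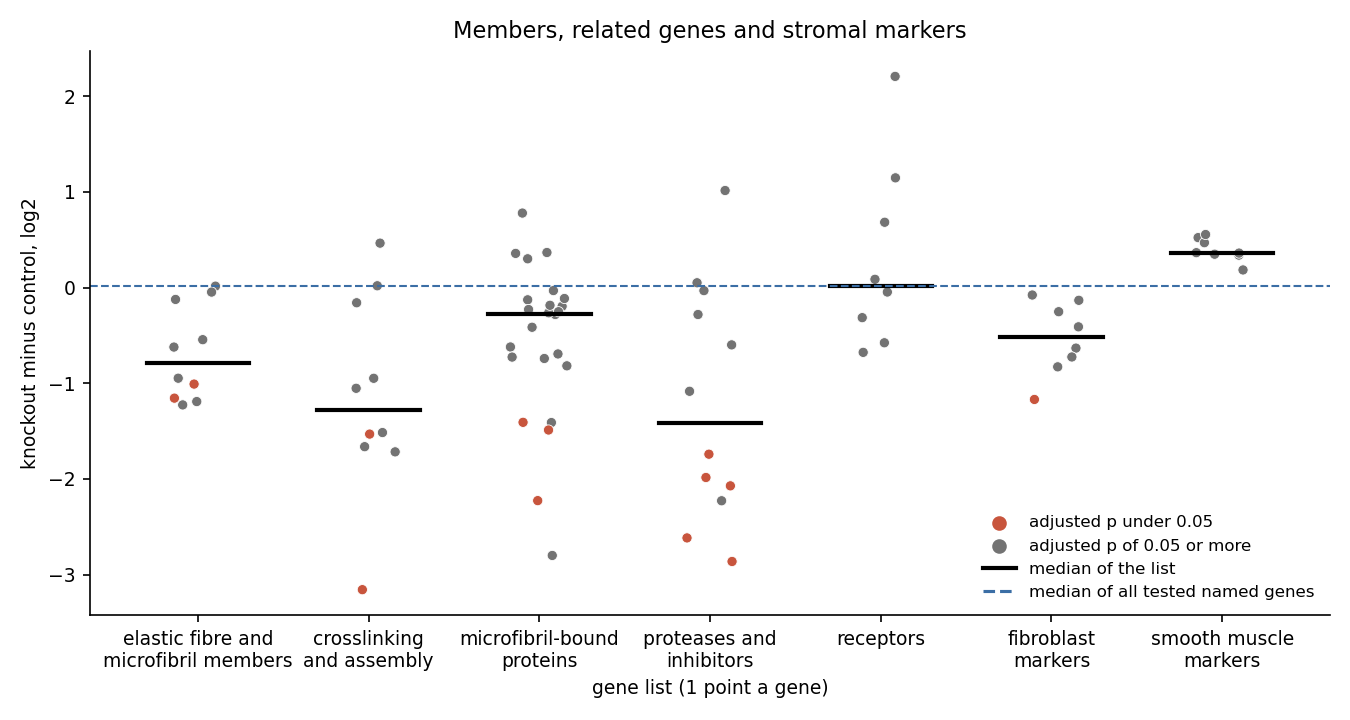
Difference between knockout and control (vertical axis, log2) of each tested gene, by list (horizontal axis), for the 10 members, the 4 related lists and 2 marker lists; red points are called, black bars are list medians and the dashed line is the median of all tested named genes (0.01). The members' median is -0.79, between those of the fibroblast markers (-0.52) and the crosslinking genes (-1.28), and all smooth muscle points lie above 0.

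The genes with a pattern over the 6 arrays most like that of elastin, read at the brighter Eln probe, were Pla2g7, Col20a1, Letm2, Slc6a6 and Kcnj10. Their root mean square difference from Eln, after each probe was centred on its own mean, was 0.04 for Pla2g7 and for Col20a1 and 0.06 for each of the other 3, where the median over 16772 genes was 0.48. Each had a difference between -0.66 and -0.58, and none was called. They were chosen for values like those of Eln on these same arrays, so a like difference follows from the choice. Among the other members Fbln1 was nearest to Eln, at 0.23, with Mfap2 and Fbln5 at 0.24 each, and Fbn2 was farthest, at 0.43. By nearness these members ranked only 1103 (Fbln1), 1232 (Mfap2), 1248 (Fbln5) and 6716 (Fbn2) among the 16772 genes.

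**Figure D5:**
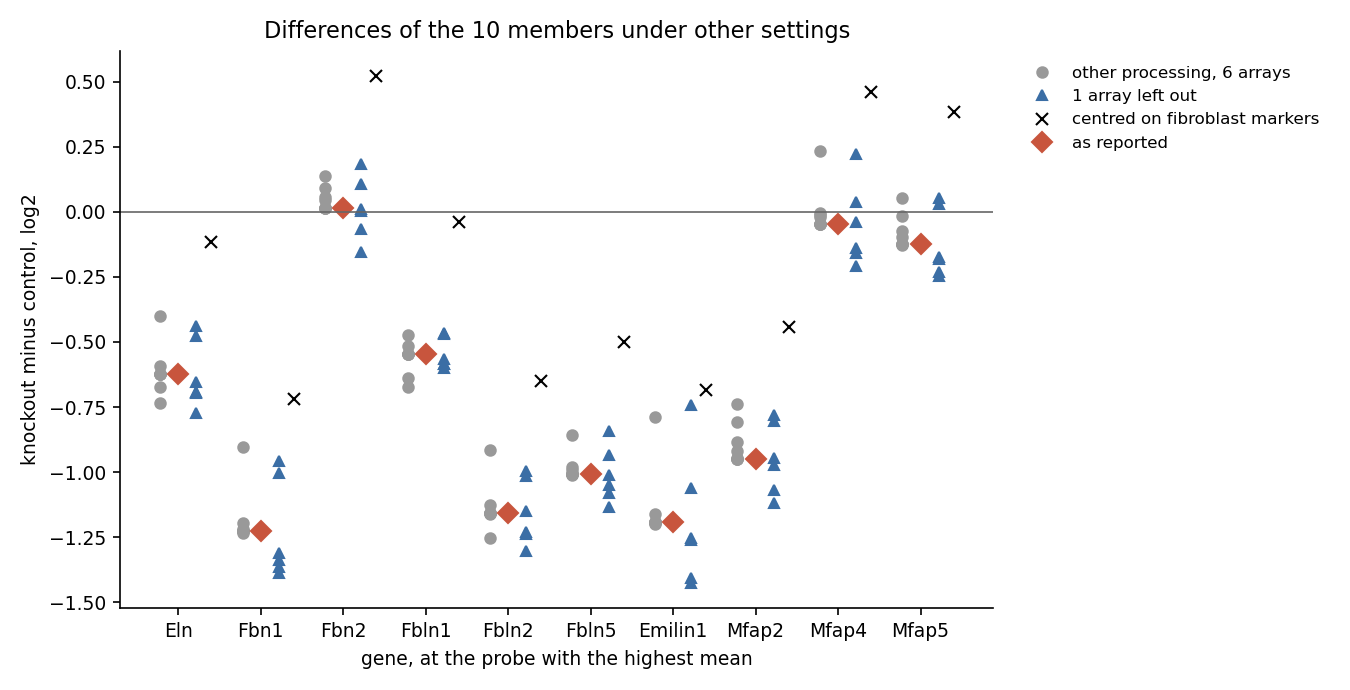
Difference between knockout and control (vertical axis, log2) of each member at its brighter probe (horizontal axis), as reported (red), under other processing of all 6 arrays (grey), with 1 array left out (blue) and centred on fibroblast markers (crosses). Eln, Fbn1, Fbln1, Fbln2, Fbln5, Emilin1 and Mfap2 lie below 0 in each setting shown, and Fbn2, Mfap4 and Mfap5 lie on both sides of it.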

How the data were processed

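RNA was amplified linearly and labelled, per the labels' protocols. Per the file headers the arrays, of Agilent design 074809, were extracted by Feature Extraction 11.5.1.1; the submitters' processing notes name version 10.7. The labels name Cy3 and a green signal; the files hold the red channel alone, which was used. The deposited processed signal is an intensity, background-subtracted and spatially detrended per the file headers and not scaled between arrays. A value table of the series holds the same deposited intensities (log2 correlation of at least 0.999999) and served as an alternative.

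From each log2 signal the 75th percentile of its array, taken over 59305 non-control spots, was subtracted. Outlier spots (3.26% to 16.0% of an array) were missing; spots of a probe were averaged. Probes well above background on all arrays of a group, with at least 2 usable values in each, were tested (35351 of 56605) in limma 3.58.1 (R 4.3.3; lmFit, eBayes), genotype as the only term, two-sided, Benjamini-Hochberg at 0.05 over all tested probes; 1403 were called, 855 lower and 548 higher. Standard errors and intervals are limma's. The number of arrays and the values lost to outlier spots limit precision. Exact permutation tests are two-sided. On simulated data for knockout against control (35351 probes) 20% of changes of 1 on the log2 scale were recovered, 66% of changes of 2, 94% of 3 and 98% of 4 (69.5% of all 200), and 11 of 150 calls were false. Only 200 probes were changed there, and normal noise was drawn independently for each value. The real fit gave 1403 calls and its arrays can share effects over many probes, so these rates may not hold for it.

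Probes were named through RefSeq accessions in GRCm38.p6 (33767 of 56605); the files place probes on mm9, so no probe coordinates are given. The probe with the highest mean stood for a gene in lists and medians. Named genes were all members with every probe, Islr, list genes called over all probes, Lox, Loxl1, Efemp2, Ltbp4 and Itgav, and the 5 genes nearest to Eln; other list genes and probes named, and the pairs of members, were chosen after their values were seen. Members and lists were chosen with earlier results of these data known. Alternatives were other backgrounds, scalings, filters and weights, outlier spots kept, the value table, probe means and each array left out. The labels do not say more of how the animals were drawn, so p-values measure the spread between these 6 samples.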

Additional observations from a re-analysis of the deposited data

How the results depend on the processing

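No paired analysis was possible because the labels give no replicate numbers shared between the genotypes. The cause was not tested for any change below. The number of probes called (1403, 39.1% higher) was 2773 with normexp and quantile normalization, 2185 with quantile normalization, 2249 with median centring, 484 with no filter on dim probes, 9292 with array weights (49.4% higher) and 5817 centred on fibroblast markers (86.9% higher), and 40 to 2114 with 1 array left out (10% higher without knockout replicate 3, 24.7% and 26.5% without knockout replicates 1 and 2, and 55.1% without control replicate 1). The 2 member genes called became 5 with normexp and quantile normalization (Fbn1, Fbln1 and Mfap2 joined), 6 with array weights (Eln as well), 0 with no filter on dim probes or with probes of a gene averaged, 1 centred on fibroblast markers and 0 with any array left out; with no filter 7 members had an unadjusted p under 0.05. It was 3 with quantile normalization, median centring, outlier spots kept and the value table. The median difference of the members (-0.79) was -0.28 centred on fibroblast markers and -0.89 to -0.61 with 1 array left out. The 10 related genes called were all lower, whereas the counts under other settings take calls in either direction and can include genes called higher. They were 16 with normexp and quantile normalization, 3 with no filter, 27 with array weights and 17 centred on fibroblast markers, and 0 to 7 with 1 array left out. Signs changed only at genes near 0: Mfap5 read 0.054 with normexp and quantile normalization, 0.38 centred on fibroblast markers and -0.24 to 0.053 with 1 array left out (above 0 when that was control replicate 1 or knockout replicate 2); Mfap4 read 0.24 with array weights, 0.46 centred on fibroblast markers and -0.21 to 0.22 with 1 array left out (above 0 when that was control or knockout replicate 1); the brighter Fbn2 probe read -0.15 to 0.18 with 1 array left out (below 0 when that was control replicate 1 or knockout replicate 3); and Ltbp4 read 0.38 centred on fibroblast markers. Limits are the 3 arrays a group, the lower unscaled signal of all knockouts, and the outlier spots that kept a Fbn1 probe and Itgav from the test.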
